A study of Drosophila melanogaster with 15 samples.

Results

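The transcripts described here are those whose level in heads of Clic knockdown flies lay outside everything measured in both control genotypes. Each of 16322 probesets, the sets of oligonucleotides that stand for a transcript on the array, was kept if all 5 elav/v105975 arrays lay above all 10 control arrays, or all 5 lay below them. By this rule 163 probesets (0.999% of those on the array) were beyond the controls, 88 above (0.539%) and 75 below (0.46%). The rule uses the measured levels themselves, so the separation of these transcripts is a description and not a result of a test.

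The study compared 3 genotypes, each on 5 arrays made from RNA of whole fly heads. The elav/v105975 flies carried both elav-Gal4, a driver active in neurons, and v105975, a UAS transgene whose hairpin RNA targets Clic. The elav/+ flies had the driver without the hairpin, and the v105975/+ flies had the hairpin without the driver. A single hairpin line was used, and the sources used here do not name the strain of the + chromosomes. The RNA came from every cell type of the head, although the driver acts in neurons. Nothing in the sources used here says whether arrays of a genotype came from separate collections of flies, so p-values reflect the spread among these arrays, which may be technical. The number of arrays limits the precision.

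In the Gal4-UAS system the yeast factor Gal4 turns on a transgene placed behind UAS sites, and a long hairpin RNA is then cut into short RNAs that direct the destruction of the matching mRNA. Flies with either element alone are the usual controls, since an insertion, its marker gene or its genetic background can change transcripts by itself. Clic encodes the only fly member of the chloride intracellular channel family, proteins that occur both in soluble form, with a fold like that of glutathione S-transferases, and in membranes.

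Median levels of the 15 arrays ran from 6.16 to 6.24 in log2 units, and each array had a mean correlation of 0.993 to 0.995 with the others of its genotype, across probesets. No array stood apart. All differences below are on the log2 scale and are elav/v105975 minus the control named. The control mean gives elav/+ and v105975/+ equal weight. A transcript was called if its adjusted p was at most 0.05 in a limma fit, adjusted by the method of Benjamini and Hochberg over the whole array.

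Against the control mean 523 probesets (3.2%) were called, 242 higher (1.48%) and 281 lower (1.72%) in elav/v105975. Many of these did not differ from both controls. In 392 of the 523 the elav/v105975 arrays overlapped control arrays, in 38 the elav/v105975 mean lay between the means of the controls, and in 207 the comparison with v105975/+ alone had an unadjusted p above 0.05. The controls themselves were called different from each other in 258 of the 523. The count fell to 263 without elav/v105975 replicate 2 and to 332 without elav/v105975 replicate 3. Fitting the 10 control arrays as 1 group, which puts the difference between the controls into the error, left 82 calls, 67 of them for transcripts beyond all controls.

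Of the 163 probesets beyond the controls, 131 were also called against the control mean, 67 of the 88 above and 64 of the 75 below. This test and the rule read the same arrays. The number called above was 40 without elav/v105975 replicate 2. The 32 others differed by 0.07 to 0.69 in size, and only CG3699 among them by more than 0.2. Against elav/+ alone, where 9.43% of probesets were called (4.26% higher and 5.17% lower), 74 of the 88 and 67 of the 75 passed. Against v105975/+ alone, where 0.417% were called, 16 and 25 passed. These 41 probesets, with 4 that were not beyond all control arrays, made up the 45 (0.276%) that were called against each control in the same direction, 18 higher (0.11%) and 27 lower (0.165%). The 2 comparisons share the elav/v105975 arrays.

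Levels of these transcripts were mostly nearer to v105975/+ than to elav/+, in 71 of the 88 above and in 52 of the 75 below. The median difference of those above was 0.23 to elav/+ and 0.16 to v105975/+, and of those below it was -0.32 and -0.22. Most differences were small. Against the control mean 45 of the 88 above and 18 of the 75 below differed by less than 0.2, while 9 above and 10 below reached 1.5-fold and 5 above and 2 below reached 2-fold. The space between the nearest elav/v105975 array and the nearest control array had a median of 0.035 above and 0.065 below, and it was at least 0.1 for 16 and 24 probesets. The SD among the 5 arrays of elav/v105975 had a median of 0.0633 over the 163, against 0.125 over all probesets. A small difference meets the rule only where arrays vary little, so the lower SD comes in part from the selection. Transcripts beyond the controls were brighter than the array as a whole, with a median level of 8.68 above and 7.90 below, against 6.19 for all probesets. Whether this too comes from the selection was not tested.

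**Figure D1:**
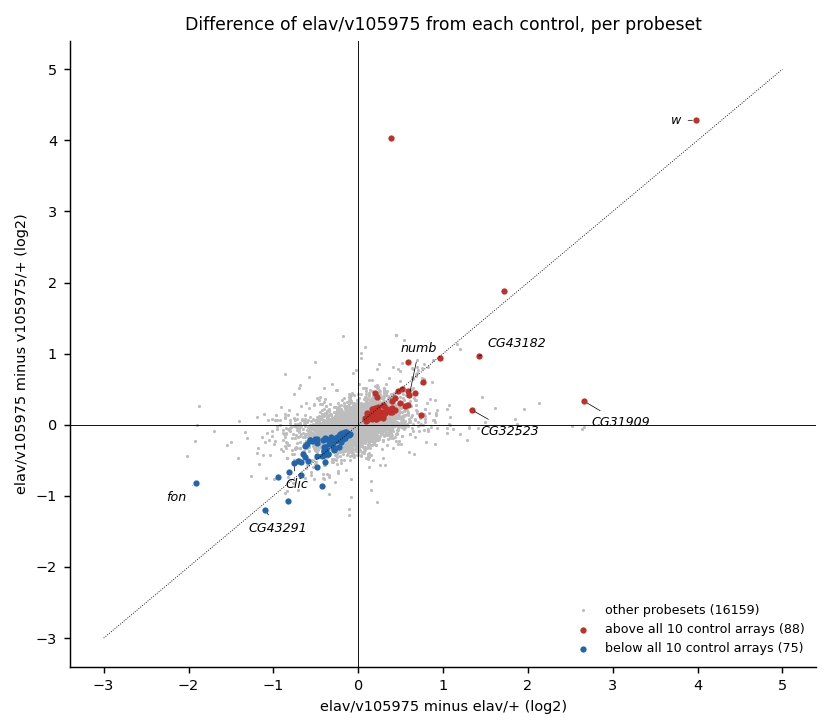
Difference of elav/v105975 from elav/+ (horizontal, log2) and from v105975/+ (vertical, log2) for each of 16322 probesets. Red points are the 88 probesets above and blue points the 75 below all 10 control arrays, and grey points are the others. The dotted line marks equal differences. Most coloured points lie between the dotted line and the horizontal axis, farther from elav/+ than from v105975/+. Grey points were not counted in this way.

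Clic fell in elav/v105975 heads to 63.7% of the control mean (95% confidence interval 59.4% to 68.2%). Its levels were 8.42, 8.28, 8.35, 8.50 and 8.44 in elav/v105975, against 9.23, 9.14, 9.15, 9.17 and 9.09 in elav/+ and 8.85, 8.97, 8.96, 8.86 and 9.05 in v105975/+. Every knockdown array lay below all 10 control arrays, and the v105975/+ arrays in turn lay below all elav/+ arrays. The difference was -0.65 to the control mean (standard error 0.0468, adjusted p = 1.2e-06 from limma), -0.76 to elav/+ and -0.54 to v105975/+. In RNA of whole heads, fewer cells that express a gene and less of its RNA per cell cannot be told apart.

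The elav gene, which marks neurons and supplies the promoter of the driver, was not beyond the controls. It was at 9.997, 10.02, 9.96, 9.95 and 9.91 in elav/v105975, at 9.90, 9.93, 9.84, 9.93 and 9.90 in elav/+ and at 9.86, 9.88, 9.85, 9.78 and 9.76 in v105975/+, and did not pass (difference 0.11, adjusted p = 0.137 from limma). In an exact two-sided permutation test of elav alone p was 0.0238 against elav/+ and 0.00794 against v105975/+, the smallest p that 5 against 5 arrays allow, with all 5 elav/v105975 arrays above those of v105975/+. Of 8 neuron markers none was called, and their mean level ran from 10.23 to 10.32 in elav/v105975, from 10.08 to 10.20 in elav/+ and from 10.18 to 10.28 in v105975/+. These neuron marker levels lay above all elav/+ arrays and overlapped v105975/+. Mean levels of 6 photoreceptor markers did the same, at 11.840 to 11.988 in elav/v105975, 11.678 to 11.835 in elav/+ and 11.857 to 11.957 in v105975/+. The marker lists of glia, fat body, muscle, hemocytes and male and female germline had mean levels in elav/v105975 that overlapped both controls. Called among the markers were Rh4, norpA, wrapper (glia) and Mhc (muscle) higher and Indy (glia), TpnC73F (muscle) and PPO2 (hemocytes) lower, and with the controls as 1 group only PPO2 was called. Without elav/v105975 replicate 2 or 4 PPO2 lost its call (adjusted p up to 0.0543 from limma). The transcription factor gene tio, which lies at a landing site known for some hairpin lines of this collection, differed by 0.09 (adjusted p = 0.51 from limma) with overlapping arrays.

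The largest difference to the control mean was in w, the gene for the white transporter of eye pigment precursors. It stood at 11.47, 11.39, 11.48, 11.51 and 11.42 in elav/v105975, against 7.62, 7.31, 7.35, 7.52 and 7.55 in elav/+ and 7.11, 7.02, 7.16, 7.18 and 7.38 in v105975/+. The 5 knockdown arrays thus lay far above both controls, 17.5-fold over their mean (difference 4.13, standard error 0.0618, adjusted p = 1.04e-15 from limma). A short form of w is the usual marker on fly transgenes, so the probeset may read transgene RNA together with the endogenous gene, and the share of each was not tested. Of 20 eye pigment genes w was the only one beyond the controls (5.0%, against 0.539% of all probesets above them). Hn, the phenylalanine hydroxylase that also serves pteridine pigment synthesis, was called lower (difference -0.29, adjusted p = 0.0188 from limma). Its 5 arrays overlapped those of v105975/+. Without elav/v105975 replicate 2 or 3 its adjusted p from limma was 0.0543 or 0.0535, and with the controls as 1 group it was 0.254.

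**Figure D2:**
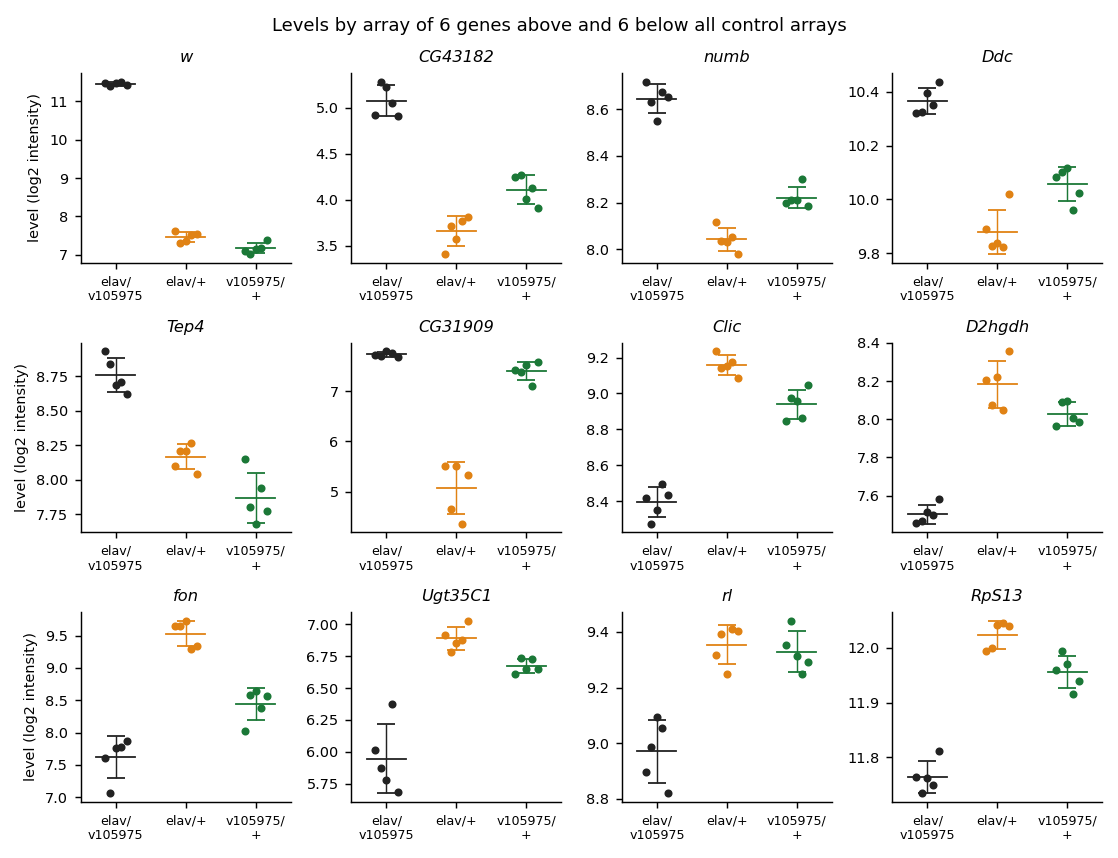
Level on each array (log2 intensity, points) with mean and SD (bars, n = 5) for 6 genes above and 6 below all control arrays, elav/v105975 at the left of each panel, then elav/+ and v105975/+. The vertical scale differs between panels. In CG31909 and fon the controls differ widely from each other, whereas in rl they overlap.

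Behind w, the named genes that rose most against the nearer control were led by CG43182, a gene of unknown function on chromosome X. Its levels were 4.92, 5.28, 5.23, 5.05 and 4.91 in elav/v105975, against 3.41, 3.71, 3.58, 3.77 and 3.81 in elav/+ and 4.25, 4.27, 4.01, 4.13 and 3.91 in v105975/+. The difference was 1.19 to the control mean (standard error 0.0851, adjusted p = 1.2e-06 from limma), and v105975/+ was itself above elav/+. CG4914 was 0.96 higher with controls that did not differ from each other (0.97 to elav/+ and 0.94 to v105975/+, adjusted p = 0.000236 from limma against their mean). CG17684 and CG5639, also without a known function, were 0.68 and 0.51 higher, and CG13962, CG6688 and CG3091 were 0.53, 0.37 and 0.28 higher. Cpr11B, which encodes a cuticle protein, was 0.56 higher. The microRNA gene mir-4954 lay at 8.07, 8.12, 8.16, 8.004 and 7.97 in elav/v105975, against 7.71, 7.83, 7.33, 7.61 and 7.50 in elav/+ and 7.73, 7.43, 7.61, 7.596 and 7.56 in v105975/+, a difference of 0.47. These arrays read the gene region, not the mature microRNA. All of these genes were called against the control mean and kept the call without any 1 array. Against v105975/+ alone Cpr11B, CG6688 and CG3091 did not pass (adjusted p = 0.182, 0.121 and 0.109 from limma). On every array CG43182, CG4914, CG13962 and CG6688 were dimmer than the median level of 6.19 for all probesets.

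A gene with a known role above the controls was numb. Numb protein represses Notch signalling and is handed to 1 daughter in asymmetric cell division. Its levels were 8.72, 8.63, 8.55, 8.67 and 8.65 in elav/v105975, against 8.12, 8.03, 8.03, 8.05 and 7.98 in elav/+ and 8.20, 8.21, 8.21, 8.30 and 8.19 in v105975/+. The SD within each genotype was 0.045 to 0.063, and the controls lay 0.18 apart. The difference to the control mean was 0.51 (standard error 0.0388, adjusted p = 1.88e-06 from limma), and numb was called against elav/+ (0.60) and v105975/+ (0.42) alone. It was the only one of 26 measured Notch pathway genes beyond the controls (3.85%, against 0.539% of all probesets above them). The genes N, Dl, Ser, sca, mib1 and nct of this list were not matched by name to a probeset and were not read. The Notch target E(spl)mbeta-HLH was called lower with overlapping arrays (-0.21, adjusted p = 0.0308 from limma), but not with the controls as 1 group (0.0893) or without elav/v105975 replicate 1, 2 or 4, elav/+ replicate 4 or 5 or v105975/+ replicate 2 (0.0529 to 0.109).

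Ddc encodes dopa decarboxylase, which makes dopamine and serotonin from their precursors. It was at 10.32, 10.32, 10.40, 10.35 and 10.44 in elav/v105975, against 9.89, 9.83, 9.84, 9.82 and 10.02 in elav/+ and 10.08, 10.10, 10.12, 9.96 and 10.02 in v105975/+. It rose by 0.40 over the control mean (standard error 0.0436, adjusted p = 0.000115 from limma) and passed against each control. In the opposite direction, b, whose product makes the beta-alanine that is joined to dopamine, was below all control arrays (difference -0.35, adjusted p = 0.0072 from limma). Of 19 dopamine and serotonin genes 1 was called higher (Ddc, 5.26%, against 1.48% of all probesets). Called lower were 2 (b and Hn, 10.5%, against 1.72%). The median difference of the list was 0.07, against -0.0032 for all probesets.

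Tep4, a thioester protein of the innate immune system, was at 8.93, 8.84, 8.69, 8.71 and 8.62 in elav/v105975, against 8.10, 8.21, 8.21, 8.27 and 8.04 in elav/+ and 8.15, 7.80, 7.68, 7.94 and 7.77 in v105975/+. It lay above elav/+ by 0.59 and above v105975/+ by 0.89 (adjusted p = 4.5e-05 from limma against the control mean). It was 1 of 17 among the 88 above that were nearer to elav/+. Other immune genes beyond the controls lay below them. BomBc3, of the Bomanin peptides induced by the Toll pathway, fell by 0.61 (adjusted p = 0.0136 from limma). IM3, an older name of another Bomanin, fell by 0.55 (adjusted p = 0.00367 from limma). Neither is in the immune list of 44 genes. In that list 1 was called higher (Tep4, 2.27%, against 1.48% of all probesets). Called lower were 4 (9.09%, against 1.72%), PGRP-SD, Sting, BomS5 and Srg1, and the 4 overlapped control arrays. For PGRP-SD and Sting, at -1.08 and -0.90 against the control mean, the difference to v105975/+ was -0.23 and -0.09, and with the controls as 1 group neither was called (adjusted p = 0.246 and 0.302 from limma). Without v105975/+ replicate 1, 7 genes of the list were called lower.

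Odorant-binding proteins carry odours and tastants in the fluid of sensory hairs. Obp56d lay at 12.08, 12.12, 12.06, 12.14 and 12.05 in elav/v105975, against 11.48, 11.42, 11.49, 11.58 and 11.54 in elav/+ and 11.66, 11.87, 11.79, 11.85 and 11.91 in v105975/+, and was 0.43 higher (adjusted p = 7.01e-05 from limma). Obp57a lay at 7.69, 7.71, 7.70, 8.05 and 7.59 in elav/v105975, against 8.28, 8.14, 8.16, 8.17 and 8.40 in elav/+ and 8.09, 8.27, 8.30, 8.14 and 8.14 in v105975/+. It fell by 0.46 (adjusted p = 0.00199 from limma), with elav/v105975 replicate 4 close to the controls.

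A few members were beyond all controls although the controls were far apart. CG31909 was at 7.72, 7.71, 7.80, 7.76 and 7.69 in elav/v105975, against 5.50, 4.66, 5.51, 4.36 and 5.32 in elav/+ and 7.43, 7.39, 7.53, 7.10 and 7.58 in v105975/+. It differed by 2.66 from elav/+ but by 0.33 from v105975/+, where it did not pass (adjusted p = 0.628 from limma), and its call against the control mean was lost with the controls as 1 group (adjusted p = 0.218 from limma). CG32523 had the same form, at 1.34 and 0.21. So had klg, an immunoglobulin-domain adhesion protein of photoreceptors and memory, at 0.74 and 0.14. In all, the controls were called different from each other in 29 of the 163, against 6.1% of all probesets. With the controls as 1 group CG32523 and klg were not called either (adjusted p = 0.212 and 0.164 from limma).

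By a grouping made by hand after the values had been seen, 21 of the 88 transcripts above the controls were assigned to signalling, excitability or contact of neurons. None of the 75 below was assigned to it. Directions were known when the grouping was made, so these counts are no result about direction. Other members, such as nrm above the controls and spict below them, were not assigned to it. The share of such genes on the whole array was not measured. Differences of the 21 ran from 0.11 to 0.44, with a median of 0.18, and 17 were called against the control mean. Of all 88 above 67 were called, and of all probesets 1.48% were called higher. VGAT, which loads GABA into synaptic vesicles, was at 9.01, 9.15, 9.11, 9.16 and 9.02 in elav/v105975, against 8.67, 8.59, 8.67, 8.80 and 8.76 in elav/+ and 8.92, 8.96, 8.80, 8.96 and 8.92 in v105975/+. The knockdown arrays lay close above the v105975/+ arrays (difference 0.28 to the control mean, adjusted p = 0.00306 from limma, and 0.18 to v105975/+).

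Eaat2, a transporter of acidic amino acids, was 0.24 higher (adjusted p = 0.0037 from limma). The subunit nAChRalpha5 of nicotinic acetylcholine receptors was 0.21 higher (adjusted p = 0.0052 from limma), and nAChRalpha4 was 0.16 higher. The sodium channel auxiliary protein tipE, the potassium-chloride cotransporter kcc and the voltage-gated potassium channel Shal were at 0.24, 0.20 and 0.16, and Shal did not pass (adjusted p = 0.0546 from limma). The scaffold protein veli was 0.32 higher and passed against each control (adjusted p = 0.0442 to elav/+ and 0.00104 to v105975/+, both from limma). In limma fits that left out 1 array, tipE lost its call without elav/v105975 replicate 2 (adjusted p = 0.058), kcc without replicate 4 (0.0534) and nAChRalpha4 without replicate 1, 2 or 4 (0.0636, 0.0589 and 0.0563).

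Across the 21, 19 passed against elav/+ alone but only veli against v105975/+ alone. Of all probesets 9.43% and 0.417% passed these 2 comparisons. The 21 were picked from probesets beyond all control arrays, which favours passing, so these counts are a description. Without elav/v105975 replicate 2 or 4, 8 and 11 of the 21 were called against the control mean, in place of 17. With the controls as 1 group only dpr21 was called, and the adjusted p from limma was 0.0703 for VGAT, 0.0535 for Eaat2, 0.0871 for nAChRalpha5 and 0.0645 for veli. The 8 neuron markers moved the same way, with a median difference of 0.10 (0.14 to elav/+ and 0.03 to v105975/+). Their part in these values was not tested.

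In the list of 25 synaptic vesicle genes all 25 differences to the control mean were above 0, and 5 were called higher (20%, against 1.48% of all probesets) and none lower. The median difference was 0.11, made up of 0.17 to elav/+ and 0.04 to v105975/+, with 7 genes below 0 in the second comparison. VGAT and the clathrin adaptor AP-2alpha were beyond all controls. The vesicle fusion factors comt, Rop and unc-13 were called with overlapping arrays. The unc-13 gene is also among the chromosome 4 genes called higher, described below. Of the 5, VGAT alone kept its call without any 1 array, and the count fell to 1 without elav/v105975 replicate 2 or replicate 4, to 2 without v105975/+ replicate 3 or 4, and to 3 without elav/+ replicate 2, 3, 4 or 5, v105975/+ replicate 1 or elav/v105975 replicate 1, 3 or 5. With the controls as 1 group none of the 25 was called, and VGAT had an adjusted p of 0.0703 from limma. In phototransduction 2 of 25 genes (8.0%, against 0.539% of all probesets) were beyond the controls, the phospholipase C gene norpA (0.15, adjusted p = 0.018 from limma, and 0.0679 without elav/v105975 replicate 2) and the lipid transfer protein gene rdgB (0.12, adjusted p = 0.0953 from limma). The rhodopsin gene Rh4 was called higher with overlapping arrays (0.21, adjusted p = 0.0154 from limma). With the controls as 1 group no gene of this list was called, and the adjusted p from limma was 0.139 for norpA and 0.137 for Rh4. The 6 photoreceptor markers, which include both, had a median difference of 0.13 (0.22 to elav/+ and 0.015 to v105975/+). Of these 6, 5 lay above 0, and Rh5 lay below at -0.22 without a call (adjusted p = 0.15 from limma). The rhodopsin genes ninaE, Rh3 and Rh6 were not matched by name to a probeset and were not read. The part of the markers in these values was not tested.

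Below the controls, D2hgdh encodes the mitochondrial enzyme that oxidizes D-2-hydroxyglutarate. Its levels were 7.45, 7.47, 7.51, 7.50 and 7.58 in elav/v105975, against 8.21, 8.08, 8.22, 8.05 and 8.36 in elav/+ and 7.96, 8.09, 8.09, 8.004 and 7.98 in v105975/+. The knockdown arrays formed a narrow band below both controls, which overlapped each other (difference -0.60, standard error 0.0505, adjusted p = 6.69e-06 from limma). The other 12 genes of glycolysis and 2-hydroxyglutarate that were measured were not called.

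The steepest fall against the control mean was in fon, a clotting protein of the hemolymph. It was at 7.61, 7.06, 7.76, 7.78 and 7.87 in elav/v105975, against 9.65, 9.64, 9.72, 9.30 and 9.35 in elav/+ and 8.03, 8.59, 8.64, 8.38 and 8.57 in v105975/+, with v105975/+ between the other genotypes. The difference was -1.37 to the control mean (standard error 0.132, adjusted p = 2.99e-05 from limma) and -0.82 to v105975/+, against which CG43291 and CG4408 fell more. CG43291 fell by 1.15 against the control mean, with controls that did not differ (-1.10 to elav/+, -1.20 to v105975/+, adjusted p = 0.00031 from limma against their mean). Its levels near 3 to 5 are among the dimmer ones on the array. CG4408 was at -0.95 (adjusted p = 1.66e-05 from limma), CG12107 at -0.39 and the pseudogene CR14798 at -0.54.

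Ugt35C1, a UDP-glycosyltransferase that makes lipophilic compounds soluble, was at 6.01, 5.88, 5.78, 6.38 and 5.69 in elav/v105975, against 6.92, 6.78, 6.86, 6.88 and 7.03 in elav/+ and 6.61, 6.74, 6.65, 6.73 and 6.65 in v105975/+. The knockdown arrays lay below both controls, replicate 4 least (difference -0.84, adjusted p = 7.01e-05 from limma). It was the only one of 35 UDP-glycosyltransferases called (2.86%, against 1.72% of all probesets called lower). Among 84 cytochrome P450 genes 4 were called higher (4.76%, against 1.48% of all probesets) and 6 lower (7.14%, against 1.72%), but only Cyp4d20 (-0.25) was beyond the controls. The highest, Cyp6a2, was at 1.26 to the control mean with -0.01 to v105975/+, and Cyp6w1 was at 0.64 with -0.03. Without elav/v105975 replicate 5 the counts were 2 and 4. With the controls as 1 group no P450 gene was called, and the adjusted p was 0.0872 for Cyp4d20, 0.314 for Cyp6a2 and 0.345 for Cyp6w1.

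Of 19 measured antioxidant genes 1 (5.26%, against 0.46% of all probesets) was below the controls. This was Cat, which encodes catalase (difference -0.17, adjusted p = 0.0489 from limma). Sod1, Jafrac1, Prx2, Zw and others of this list were not matched by name to a probeset and were not read. The call of Cat was lost without any array but v105975/+ replicate 5, with adjusted p values up to 0.153. Of 37 glutathione S-transferases 1 (2.7%, against 1.72% of all probesets), GstD9, was called lower (-0.41, adjusted p = 0.00247 from limma) with overlapping arrays. SelR, a methionine sulfoxide reductase, was 0.24 higher (adjusted p = 0.00624 from limma), and Cbs, which directs homocysteine to cysteine, was at -0.39 (adjusted p = 0.000117 from limma). ZnT33D, a zinc transporter, was at -0.54 (adjusted p = 0.00601 from limma). None of the 12 measured genes of the mitochondrial genome and none of 75 nuclear oxidative phosphorylation subunits was beyond the controls or called, with median differences of 0.00 and 0.05. Nor was any of 20 heat shock genes or 31 measured genes of small RNA pathways. Dcr-1, AGO1, AGO2 and arx of the small RNA list were not matched by name to a probeset and were not read. Of 20 chloride channel genes only Clic was beyond the controls or called. Of 28 genes known for ethanol behaviour in flies only Clic and rl were. These are 5.0% and 7.14% of the lists, against 1.72% of all probesets called lower and 0.46% below the controls. The 33 neuropeptide genes held none beyond the controls and 2 called higher (6.06%, against 1.48% of all probesets), Ilp3 and sNPF. Ilp3 was at 0.54 to the control mean but at -0.0068 to v105975/+, and with the controls as 1 group neither was called (adjusted p = 0.351 and 0.186 from limma). Without elav/v105975 replicate 2 or 4 sNPF lost its call (0.0665 and 0.0553). Also not matched, and so not read, were Adh, Rac1 and others of the ethanol list. The same held for HisCl1 and Tmem16 of the chloride channels and for Tk, Dsk and Hug of the neuropeptides.

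By another grouping made by hand after the values and directions had been seen, 13 of the 75 below and 1 of the 88 above were assigned to the translation apparatus. Its share of the whole array was not measured. Among them were 8 cytosolic ribosomal protein genes, such as RpS13, RpS24, RpS26, RpL7A and RpL17, which is 17.0% of the 47 measured, against 0.46% of all probesets. RpS13 was at 11.76, 11.73, 11.76, 11.75 and 11.81 in elav/v105975, against 11.99, 11.999, 12.04, 12.04 and 12.04 in elav/+ and 11.96, 11.99, 11.97, 11.92 and 11.94 in v105975/+. The differences were small and the spread smaller still (-0.23, standard error 0.0319, adjusted p = 0.00106 from limma), and RpS13 was the only one of the 8 that passed against v105975/+ alone.

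RpS26 was at -0.31, RpS24 at -0.25, RpL17 and RpL7A both at -0.21 and RpS12 at -0.20. Over the list 10 of 47 genes were called lower (21.3%, against 1.72% of all probesets) and none higher. The median difference was -0.14, made up of -0.17 to elav/+ and -0.10 to v105975/+. In the second comparison 45 of 47 lay below 0. Without elav/v105975 replicate 2 the count was 6, and with the controls as 1 group it was also 6. In limma RpS12 lost its call without elav/v105975 replicate 2 or 4 (adjusted p = 0.0572 and 0.0542), and RpS7, at -0.14, did not pass (0.072). List members share the normalization of each array, so their differences are not independent.

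Other translation genes below the controls were Ef1beta, an elongation factor subunit (-0.35, adjusted p = 0.000434 from limma), AsnRS, which charges tRNA with asparagine (-0.44, adjusted p = 0.000388 from limma), the initiation factor subunit eIF3b (-0.18) and the mitochondrial ribosomal gene mRpL2 (-0.27). GluProRS was at -0.14 and did not pass (adjusted p = 0.0674 from limma). The partner chains of an amino acid transporter, mnd and CD98hc, were both beyond the controls at -0.19 and -0.14. Of these 2, CD98hc did not pass (adjusted p = 0.0675 from limma), and mnd lost its call without elav/v105975 replicate 1, 3, 4 or 5 (adjusted p from 0.0631 to 0.0704). With the controls as 1 group Ef1beta was not called (adjusted p = 0.0747 from limma), nor was mnd. Sec61alpha, the pore through which new proteins enter the endoplasmic reticulum, was at -0.29 (adjusted p = 0.00323 from limma), and Pisd, which makes phosphatidylethanolamine in mitochondria, at -0.37 (adjusted p = 0.00283 from limma). The call of eIF3b was lost without most single arrays, and held only without elav/+ replicate 1 or 3 or v105975/+ replicate 5.

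**Figure D3:**
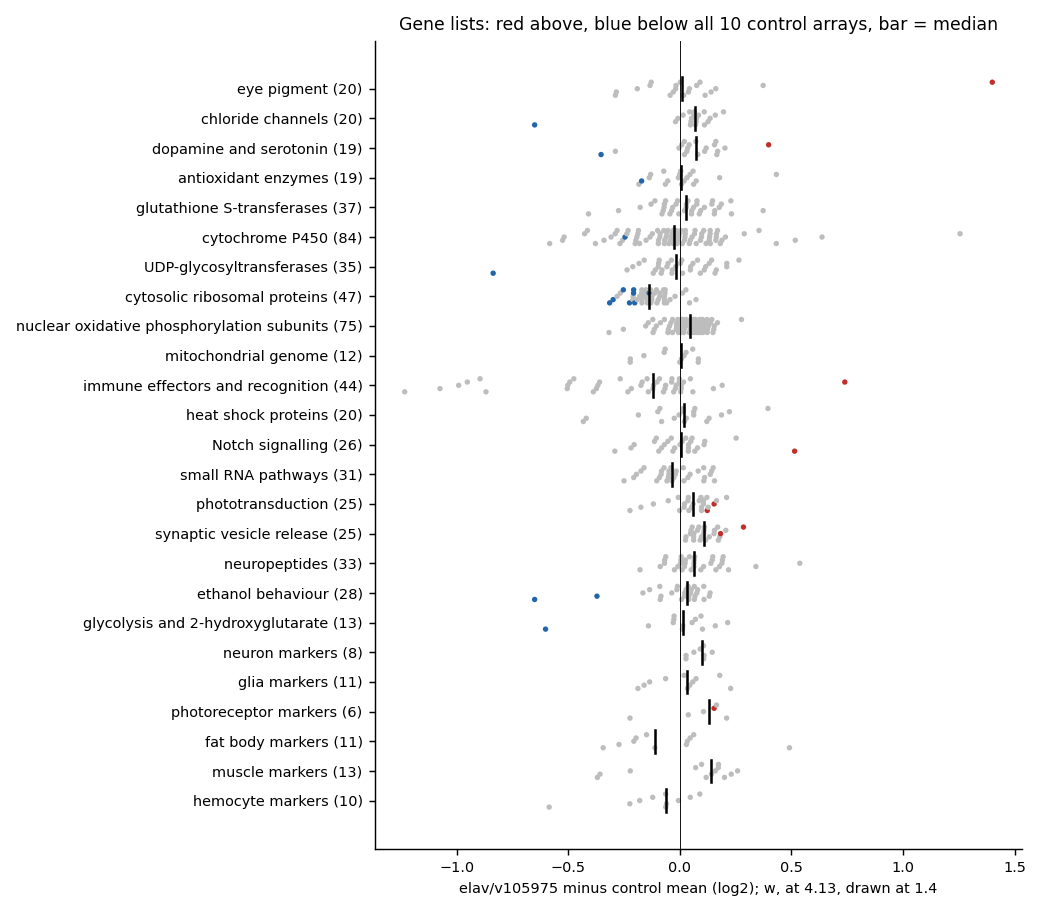
Difference of elav/v105975 from the control mean (log2) for each measured gene of 25 gene lists, with the number of genes in brackets. Red points lie above and blue points below all 10 control arrays, grey points overlap them, and black bars are medians. The 8 blue points of the cytosolic ribosomal proteins are the most in any list shown.

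Some neighbouring genes were beyond the controls together. Of 13112 measured genes placed on the chromosome arms, 137 (1.04%) were beyond the controls, and 44 of these lay in 17 runs in which each was within 10 genes of the next. The other 93 lay in no run, and 6 of the 17 runs held both directions. All 5 pairs of directly adjacent genes had the same direction, 3 of them within 1 stretch. The longest run, 7 of 13 genes, lay on arm 2R. At 1 end CG40498, rl, CG40191 and Yeti, in this order and with no gene measured between them, were all below the controls. Farther along CG17684, CG41378 and dpr21 were above them.

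The gene rl encodes the MAP kinase ERK, which acts in growth factor signalling. It lay at 8.89, 8.99, 9.10, 9.05 and 8.82 in elav/v105975, against 9.32, 9.39, 9.25, 9.41 and 9.40 in elav/+ and 9.35, 9.44, 9.31, 9.25 and 9.29 in v105975/+. Here both controls covered the same range, well above the knockdown arrays (difference -0.37, standard error 0.0516, adjusted p = 0.000979 from limma). Yeti, a chromatin protein, lay at 8.54, 8.43, 8.36, 8.54 and 8.37 in elav/v105975, against 8.82, 8.76, 8.92, 8.85 and 9.06 in elav/+ and 8.83, 9.001, 8.90, 8.72 and 9.01 in v105975/+ (difference -0.44, adjusted p = 0.001 from limma). CG40498 and CG40191 were at -0.32 and -0.41.

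At the other end CG17684 lay at 9.42, 9.66, 9.66, 9.31 and 9.56 in elav/v105975, against 8.80, 8.83, 8.54, 8.78 and 8.85 in elav/+ and 8.91, 8.97, 8.95, 8.85 and 8.92 in v105975/+. It was 0.68 higher (adjusted p = 2.67e-05 from limma), and dpr21, a surface protein of the immunoglobulin family that pairs with DIP proteins at synapses, was 0.40 higher (adjusted p = 0.00336 from limma). CG41378 was 0.21 higher, and its adjusted p of 0.0284 rose past the threshold without elav/+ replicate 3 or without elav/v105975 replicate 1, 2, 3 or 4 (0.0502 to 0.0986). The controls were called different in none of the 7. The 6 genes between them that overlapped the controls ran from -0.27 to 0.19, and CG41520 (0.19) was called (adjusted p = 0.0389 from limma). CG41520 lost its call with the controls as 1 group (0.119) and without 10 of the 15 arrays (every elav/v105975 array, elav/+ replicates 2, 3 and 4 and, of v105975/+, replicates 2 and 3, up to 0.104).

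**Figure D4:**
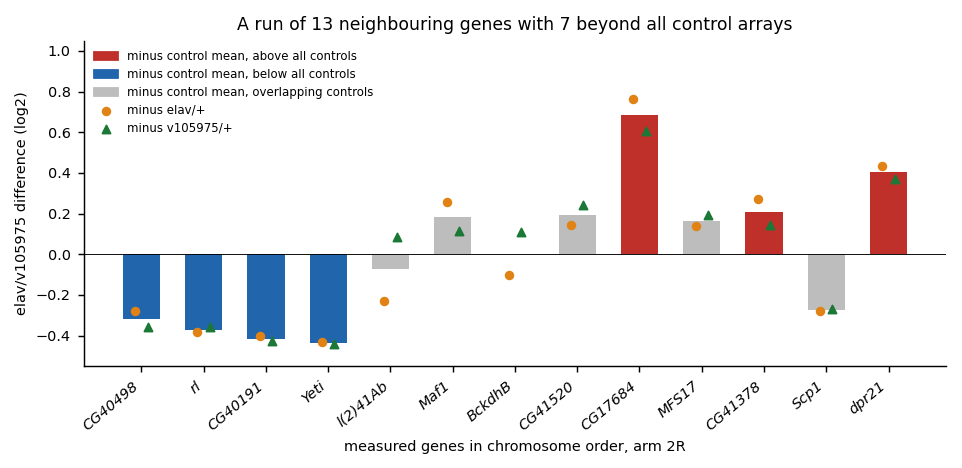
Difference of elav/v105975 from the control mean (bars, log2), from elav/+ (circles) and from v105975/+ (triangles) for 13 neighbouring genes of arm 2R in chromosome order, with spacing not to scale. The first 4 genes lie at -0.44 to -0.32, and the 3 others beyond the controls at 0.21 to 0.68. For these 7 the circle and the triangle lie close together.

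A run of 3 in 6 genes on arm 3R lay below the controls, CG31326 (-0.53), CG9631 (-0.74) and CG43291 (-1.15), while the 3 genes among them ran from -0.10 to 0.08. Another on 3R, 3 of 4 genes, lay above, CG5639 (0.51), dsd (0.17) and CG5612 (0.28). On arm 2L Ddc (0.40) and CG17568 (0.28) were above and AsnRS (-0.44) below within 8 genes. On chromosome X, rdgB (0.12) was above and Clic (-0.65) below within 8 genes. The stability of CG5612, CG17568 and dsd was low, since CG5612 lost its call without elav/v105975 replicate 2 (adjusted p = 0.0525 from limma). CG17568 lost it without 9 of the 15 arrays (every elav/v105975 array, elav/+ replicate 3 and, of v105975/+, replicates 1, 3 and 4, up to 0.119), and dsd without 10 (elav/v105975 replicates 1 to 4, elav/+ replicates 2 to 5 and, of v105975/+, replicates 2 and 3, up to 0.113).

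Chromosome 4, the small and mostly heterochromatic chromosome, held 7 of the 88 transcripts above the controls and none of those below. This is 10% of its 70 probesets, against 0.539% of the array. The 7 were the calsyntenin gene Cals, the transcription factor genes NfI and toy, the ankyrin gene Ank, Asator, Taf3 and CG11155. NfI lay at 10.64, 10.63, 10.64, 10.66 and 10.74 in elav/v105975, against 10.46, 10.48, 10.48, 10.38 and 10.49 in elav/+ and 10.53, 10.53, 10.54, 10.44 and 10.47 in v105975/+. The knockdown arrays lay above all control arrays although the difference was only 0.18 (standard error 0.0357, adjusted p = 0.0121 from limma).

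The 7 differences ran from 0.09 to 0.18 and 5 were called, all but Ank and Taf3. Only NfI kept the call without any 1 array, and 1 to 3 of the 7 were called without 1 of the elav/v105975 arrays (3 without replicate 1, 3 or 5, 2 without replicate 4 and 1 without replicate 2). The shift covered most of the chromosome, since 66 of 70 probesets (94.3%) were above 0, against 48.9% of 13129 probesets on the other arms. The median was 0.12 to the control mean, made up of 0.15 to elav/+ and 0.09 to v105975/+, and v105975/+ was itself 0.05 above elav/+. Called higher were 11 of the 70, while 1.48% of all probesets were. The count was 7, 2, 4, 3 and 5 without elav/v105975 replicate 1, 2, 3, 4 and 5, and 1 with the controls as 1 group. That 1 was NfI. Shares beyond the controls on the other arms ran from 0.407% to 0.835% above and from 0.37% to 0.498% below.

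**Figure D5:**
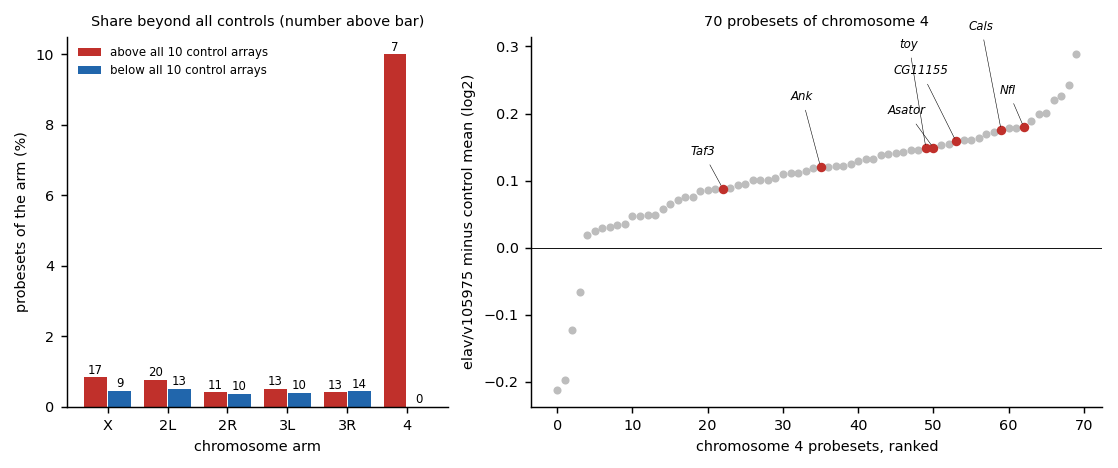
Left, percentage of the probesets of each chromosome arm that lay above (red) or below (blue) all 10 control arrays, with their number over each bar. Right, difference of elav/v105975 from the control mean (log2) for the 70 probesets of chromosome 4 in rank order, with the 7 above all controls in red. Chromosome 4 reaches 10% above and 0 below, and 66 of its 70 points lie above 0.

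Of the 163 probesets, 16 carry no gene name in the annotation used here, 5 above and 11 below. The probeset 18219381 lay at 7.31, 7.49, 7.37, 7.48 and 7.31 in elav/v105975, against 7.18, 6.99, 6.86, 7.01 and 6.96 in elav/+ and 3.44, 3.27, 3.29, 3.53 and 3.24 in v105975/+. It was thus high in both genotypes with the driver (difference 0.39 to elav/+ and 4.04 to v105975/+). The probeset 18194193 lay at 5.32, 4.94, 5.34, 4.62 and 4.58 in elav/v105975, against 3.15, 3.45, 3.17, 3.13 and 3.33 in elav/+ and 3.33, 2.78, 3.03, 3.12 and 3.12 in v105975/+, high where both transgenes were present. The probeset 18183824 lay at 10.70, 10.45, 10.54, 10.17 and 10.41 in elav/v105975, against 10.83, 10.81, 10.90, 10.98 and 10.89 in elav/+ and 11.37, 11.40, 11.39, 11.18 and 11.25 in v105975/+. Pairs of probesets with identical values account for 4 of the 163, so 161 carry distinct values.

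The edge of the rule was narrow. Just inside it, CG10680 lay below the controls with its highest elav/v105975 array and its lowest control array apart by 0.00016. The next were CG31211 and fipi, above the controls by 0.0006 and 0.0012. Just outside it, lncRNA:CR43831, mRpL9 and Gpo2 had an elav/v105975 array equal to a control array. The control array nearest to elav/v105975 was a given v105975/+ array for 14 to 30 of the 163 and a given elav/+ array for 2 to 16. The elav/v105975 array nearest to the controls was replicate 5 for 40, replicate 1 for 38 and replicate 2 for 17. Leaving out elav/v105975 replicate 1 or 5, which loosens the rule, raised the number beyond the controls to 275 and 267.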

How the data were processed

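RNA of whole heads was hybridised to 1-colour whole-transcript arrays, 5 for each of 3 genotypes. According to the deposited labels and the submitters' processing notes, the authors produced log2 intensity values with RMA in oligo 1.44.0 (background correction, quantile normalization and a summary per probeset), and these were used as they stood. Quantile normalization removes any shift shared by most transcripts. Depth has no meaning here, and the number of arrays limits precision.

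All 15 arrays entered 1 fit in limma 3.58.1 (R 4.3.3), with a mean for each genotype, contrasts of elav/v105975 with the mean of both controls and with each control, empirical Bayes moderation and Benjamini-Hochberg adjustment over 16322 probesets. No filter was applied. The fit was tested on simulated data. Gene symbols came from the platform annotation (13441 probesets with 1 symbol, 13064 of them matched in RefSeq, 555 with several and 2326 with none) and for 208 of the last from gene tables of the study. RefSeq, Release 6 plus ISO1 MT, gave arms and gene order. A list gene with several probesets was read by its brightest. List genes that could not be matched by name to a probeset were not read and are not in the counts.

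The members and lists were chosen with earlier results of these data known. Genes named were w, Clic, elav and tio, the 15 higher and 15 lower called members with the largest smaller difference to the controls, up to 4 genes of each list with the smallest p, the leading unnamed probesets and the genes at the edge of the rule. All other named genes, and the groupings by role or position, were chosen after their values were seen.

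Alternatives were a replicate block, an intensity trend, robust moderation, array weights, quantile normalization once more, centring on medians, leaving out the dimmest 25% of probesets, the controls as 1 group, probesets with 1 symbol, stricter thresholds and leaving out each array.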

Additional observations from a re-analysis of the deposited data

Results flagged for a closer look

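In 321 groups of 5 arrays (107 genes in 3 genotypes), 21 single arrays stood apart from the other 4 of their genotype by Dixon's ratio above 0.71, and chance alone gives about 1 in 20 such groups. In elav/v105975 these were CG5639 in replicate 1 (6.504), toy in replicate 1 (10.25), BomBc3 in replicate 2 (6.558), mnd in replicate 2 (7.854), CG10680 in replicate 2 (9.861), Gpo2 in replicate 3 (3.978) and Obp57a in replicate 4 (8.049). In elav/+ they were Hn in replicate 2 (9.908), CG31326 in replicate 2 (9.154), CG17684 in replicate 3 (8.541), NfI in replicate 4 (10.38), CD98hc in replicate 5 (6.193) and lncRNA:CR43831 in replicate 5 (2.419). In v105975/+ they were Gpo2 in replicate 2 (4.781), lncRNA:CR43831 in replicate 2 (2.224), VGAT in replicate 3 (8.801), Pisd in replicate 3 (9.062), numb in replicate 4 (8.299), tipE in replicate 4 (8.697), unc-13 in replicate 4 (10.78) and Eaat2 in replicate 5 (10.23). The calls of CG5639, BomBc3, Obp57a, CG31326, CG17684, NfI, VGAT, Pisd, numb, Eaat2 and CG10680 were kept without each of these arrays.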

How the results depend on the processing

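The 523 probesets called against the control mean became 82 with the controls as 1 group, 178 at an adjusted p of 0.01 and 71 if a 1.5-fold change was also required, and ran from 263 to 517 with 1 array left out. The 163 probesets beyond all 10 control arrays became 40 with a gap of at least 0.1 and 15 with a gap of at least 0.2, and ran from 168 to 275 with 1 array left out, where fewer arrays make the rule easier to meet. After quantile normalization once more 173 were beyond the controls, 126 of them shared with the 163, and after centring 174, 131 of them shared. The replicate numbers do not pair the arrays, since deviations of same-numbered arrays correlated at -0.0760 to 0.176 and only 2 of 15 pairs exceeded 0.1, and in 4 of 30 comparisons of an array with another genotype the array correlated best with its own number. With a replicate block 441 probesets were called. For genes the text names 233 values fell short of the threshold under an alternative, 15 passed it newly and 2279 stayed on their side, and none changed direction. Precision was limited by the 5 arrays of each genotype.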
